A study of Mus musculus with 16 samples.

Results

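The genes described here are 9 mouse genes that mark the formative and primed epiblast, the states that follow naive pluripotency: Otx2, Fgf5, Pou3f1, Foxd3, Zic2, Utf1, Sall2, Tcf15 and Sox3. They were taken by symbol, through their Ensembl identifiers, and make up 9 of the 52636 gene identifiers in the count table. In these embryonic stem cells they did not move as a block when the ERK pathway was switched on. Foxd3 and Zic2 rose within 2 h and were lower again at 4 h. Pou3f1 and Utf1 rose further up to 4 h, and Tcf15 rose by 4 h. Otx2 and Sall2 were lower at 2 h, and Sox3 passed no test over time with the clones fitted together. Fgf5 stayed at or under 3 counts in every library. Under 28 alternative settings, the Otx2 call at 2 h was lost in 11 and the further rise of Pou3f1 in 8. After 2 h of MEK inhibition, Foxd3, Utf1, Pou3f1 and Tcf15 had fallen from their 4 h levels, while Zic2, at -0.26 on the log2 scale, had not passed the test.

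The cells were CRAFR26 mouse embryonic stem cells, a line with a c-RAF kinase construct that 4-hydroxytamoxifen (4OHT) activates and that feeds into the ERK pathway. What drives the construct is not given in the sources used here. All groups came from cultures in N2B27 medium with LIF and the GSK3 inhibitor CHIR99021, and all had spent 48 h with the FGF receptor inhibitor PD17 (PD173074, 250 nM) replacing the MEK inhibitor PD03 (PD0325901) of routine culture. The 0h group received no 4OHT, the 2h and 4h groups received 250 nM 4OHT for 2 h or 4 h, and the rev group received a MEK inhibitor for 2 h after 4 h of 4OHT. Each group held 4 libraries, 2 from clone 4 and 2 from clone 8. No label says that the 2 libraries of a clone came from separate cultures, so the p-values measure the spread among these libraries, which may be technical. No group received the solvent of 4OHT alone, and no group was kept as long as rev without the MEK inhibitor, so 4OHT and culture time, and MEK inhibition and the added time, cannot be told apart.

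As background, embryonic stem cells held with MEK and GSK3 inhibitors and LIF resemble the naive epiblast. FGF signalling through ERK is known to push such cells out of the naive state into a formative state, in which they become able to respond to signals for the germ layers, and then into a primed state. Otx2 and Foxd3 are transcription factors known to redirect the shared pluripotency factors to other enhancers on this path, and Fgf5 is the classical marker of its later steps.

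Total counts per library ran from 2172651 to 12680303, and a count of 3 stood for 0.213 to 1.35 CPM, the count relative to the library's total after scaling for composition (TMM), as in all CPM values here. The 8 most abundant gene models took 42% to 80.4% of the counts of a library, with group means of 60.7% before induction, 58.5% after 2 h, 54.1% after 4 h and 65.9% in the rev group. A library stood apart from its group at each end of this range: 4h clone 4 replicate 1, at 42%, and rev clone 8 replicate 2, at 80.4%, which kept 940289 counts in all other models and had a TMM factor of 0.463 beside 1.47 in the former. Markers of the labelled cell type were present in every library: Nanog lay between 180 and 514 CPM, Pou5f1 between 111 and 167, and Sox2 between 159 and 251. Spry4, an inhibitor of the ERK pathway that the pathway itself induces, averaged 0.998 CPM ± 0.557 at 0h, then 146 ± 8.25 at 2h and 245 ± 32.3 at 4h, and 3.12 ± 1.20 in the rev group (SD, n = 4 libraries each).

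CPM divided by exon length, which allow levels to be compared between genes, spread the 9 genes over a wide range. Averaged over the 16 libraries, Utf1 stood at 33.7 CPM per kb of exon, Zic2 at 20.6 and Foxd3 at 8.18. Tcf15 (2.14), Pou3f1 (1.62), Sox3 (1.28), Sall2 (1.14) and Otx2 (0.503) were low, and Fgf5 (0.0381) was close to nothing. By mean CPM, Zic2 lay at the 87.3 percentile of the 12215 tested genes and Utf1 at 80.4, whereas Otx2 lay at 12.5 and Tcf15 at 12.2. The depth behind the genes differed as much: Zic2 collected 6718 counts over all libraries, Utf1 4668 and Foxd3 2301, but Sox3 only 283, Otx2 243 and Tcf15 235.

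**Figure D1:**
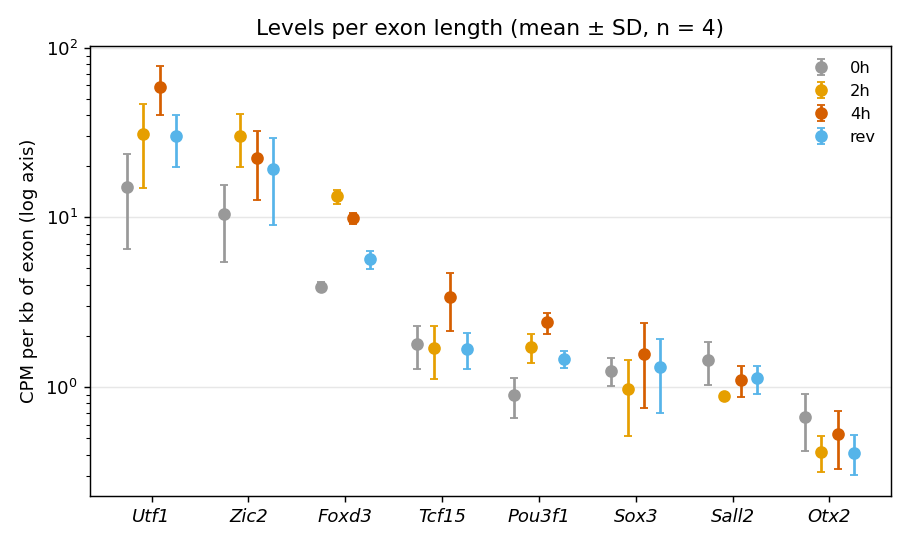
Level of the 8 tested genes as CPM per kb of exon (log axis), with the mean of each group as a point and its SD as a bar (n = 4 libraries). Utf1 and Zic2 stand above the others at 0h, and the wide bars of both reflect the 2 clones, whose means at 0h were 9.44 and 27.6 CPM for Utf1 and 42.8 and 17.7 CPM for Zic2.

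At 0h, Utf1 (15.1 ± 8.58 CPM per kb) and Zic2 (10.5 ± 5.05) lay within their spread of each other. Foxd3 followed at 3.91 ± 0.233, below every library of both and above every library of the other genes. Then Tcf15 (1.79 ± 0.506), Sall2 (1.44 ± 0.408), Sox3 (1.25 ± 0.232), Pou3f1 (0.893 ± 0.234) and Otx2 (0.663 ± 0.246) came next, each within the spread of its neighbour in this order, although every Tcf15 library lay above every Otx2 library. At 4h the same scale put Pou3f1 at 2.40 ± 0.344, above Sall2 at 1.10 ± 0.230.

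The first question was how the levels of these genes differed after 2 h and 4 h of 4OHT. Of the 8 genes that passed the filter on low counts, 4 rose between 0h and 2h (Foxd3, Zic2, Utf1 and Pou3f1), beside 11.4% of all 12215 tested genes, and 2 fell (Otx2 and Sall2), beside 9.68%. Between 0h and 4h, 5 rose (those 4 and Tcf15), beside 17.2% of tested genes. With the clones fitted together, none of the 8 fell by edgeR's quasi-likelihood test, where 16.8% of tested genes did. By that test 1 of the 8, Sall2 at -0.39, had an unadjusted p under 0.05 (0.0348), and DESeq2 also called 0. From 2h to 4h, 3 rose (Utf1, Pou3f1 and Tcf15), beside 3.8% of tested genes, and 2 fell (Foxd3 and Zic2), beside 3.52%. The median log2 fold change over the 8 genes was 0.43 at 2h and 1.04 at 4h, where that of all tested genes was -0.02 in both. In a bulk measurement, fewer cells that carry a transcript and less of it per cell cannot be told apart.

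A scaling by library size alone made fewer calls over all genes and shifted their balance. At 2h the calls went from 1390 higher and 1182 lower to 204 and 134. At 4h they went from 2098 higher and 2048 lower to 554 and 327, and between 2h and 4h from 464 and 430 to 88 and 12. Among the 8 genes this scaling left 3 higher and 0 lower at 2h, 5 higher and 0 lower at 4h, and 1 higher (Utf1) and 0 lower between 2h and 4h.

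**Figure D2:**
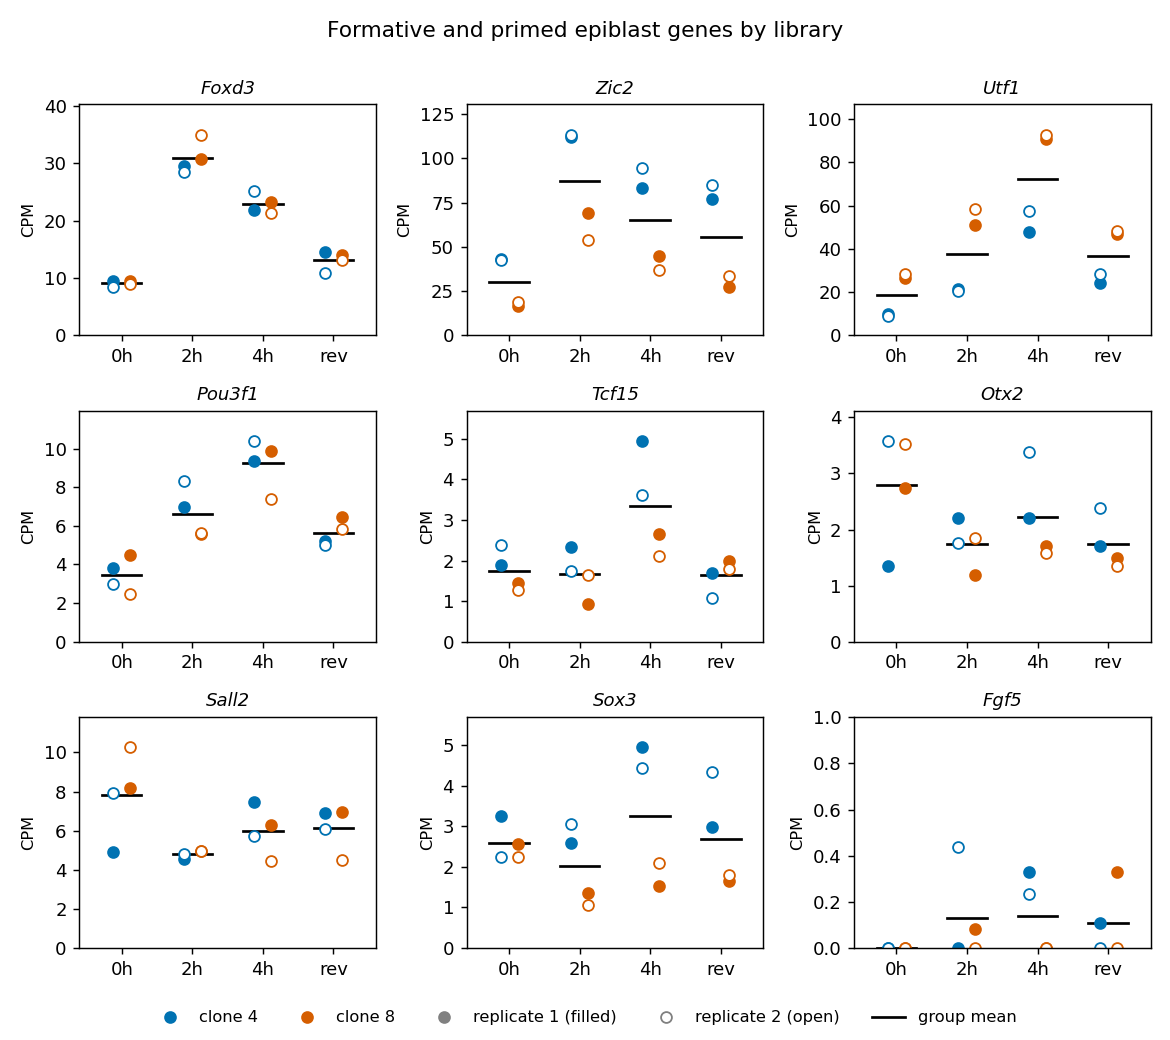
CPM of each gene in every library by group, with blue for clone 4, orange for clone 8, filled and open points for replicates 1 and 2, and a line at the group mean; each panel has its own linear axis from 0. Foxd3 peaks at 2h in both clones, Utf1 and Pou3f1 peak at 4h, and Zic2 and Utf1 keep a gap between the clones in every group.

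Fgf5 (ENSMUSG00000029337, chr5:98254184-98277030 on the plus strand) encodes the secreted growth factor of the list, a ligand of FGF receptors. It had 0 counts in all 4 libraries at 0h, where a count of 0 allows up to 3 counts, or 0.321 to 0.815 CPM depending on the library. Its highest count was 3, at 4h in clone 4 replicate 1, and it collected 10 counts over the 16 libraries. No group rose above the floor, so no fold change was computed, and a change in Fgf5 was not detectable at this depth.

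Foxd3 (ENSMUSG00000067261, chr4:99656299-99658622 on the plus strand, 1 exon) encodes a forkhead transcription factor needed in the early epiblast. At 0h its 4 libraries, in the order clone 4 replicates 1 and 2 and clone 8 replicates 1 and 2 used for every gene below, held 9.51, 8.35, 9.49 and 8.98 CPM. At 2h they held 29.5, 28.5, 30.7 and 35.0 CPM, at 4h 21.9, 25.2, 23.2 and 21.3, and in rev 14.5, 10.9, 14.1 and 13.1. No 2 groups overlapped, in either clone or across them. Against 0h, the log2 fold change was 1.80 (SE 0.11, 3.48-fold) at 2h, with an edgeR adjusted p of 8.36e-15, and 1.36 (SE 0.12, 2.57-fold) at 4h, with an adjusted p of 2.51e-11. Both calls were made under all 28 alternative settings. The fall from 2h to 4h was -0.43 (SE 0.09, edgeR adjusted p 0.0027), and it was lost with scaling by library size alone and with clone 4 alone.

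The RefSeq promoter window of Foxd3 is shown because Foxd3 had the steepest rise at 2h among these genes. It covers 250 bases before to 50 bases after the annotated start, at chr4:99656049-99656348 on the plus strand of GRCm38.p6. The capitals mark 2 of the 6 short motifs searched on both strands: a cyclic AMP response element, TGACGTCA, that begins 233 bases before the start, and an Egr motif, GCGTGGG, read on the opposite strand 18 bases before it. 
Foxd3: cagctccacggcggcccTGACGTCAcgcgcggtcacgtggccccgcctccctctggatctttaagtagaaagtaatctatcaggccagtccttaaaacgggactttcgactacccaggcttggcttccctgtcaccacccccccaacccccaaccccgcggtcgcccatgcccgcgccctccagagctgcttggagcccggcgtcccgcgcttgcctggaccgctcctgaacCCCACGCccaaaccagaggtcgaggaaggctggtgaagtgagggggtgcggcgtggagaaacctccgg
Of the 32851 RefSeq promoter windows of the same length, 1.79% held TGACGTCA and 5.04% held GCGTGGG. The other motifs were TGANTCA (AP-1, in 7.81% of windows), CCGGAA (ETS, 14.9%), CCATATTAG (part of the element bound by SRF, 0.103%) and TAATCC (Otx, 7.06%). A match describes letters and does not show a bound site.

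Zic2 (ENSMUSG00000061524, chr14:122475435-122479852 on the plus strand) encodes a zinc-finger transcription factor that takes part in neural and epiblast development. It held 42.9, 42.7, 16.4 and 18.9 CPM at 0h, 112, 113, 69.1 and 54.0 at 2h, 83.2, 94.6, 45.0 and 36.8 at 4h, and 77.1, 84.7, 27.2 and 33.4 in rev. The 2h group lay above 0h throughout. The 4h group lay above 0h within each clone, but the clone 8 libraries at 4h overlapped the clone 4 libraries at 0h. Zic2 changed on the log2 scale by 1.59 (SE 0.10, 3.02-fold, edgeR adjusted p 4.29e-14) at 2h and 1.12 (SE 0.11, 2.18-fold, adjusted p 3.46e-10) at 4h, and both were called under all 28 alternatives. Like Foxd3, Zic2 fell from 2h to 4h, by -0.47 (SE 0.10, edgeR adjusted p 0.00121), a call lost with clone 4 alone, when clone was left out of the model, and with scaling by library size alone.

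Zic5, a gene of the same family, lies on the opposite strand with 9757 bases between it and Zic2. It averaged 14.4 CPM ± 8.57 at 0h, then 31.0 ± 13.1 at 2h and 19.9 ± 8.59 at 4h, and 14.7 ± 8.65 in the rev group (SD, n = 4). Its log2 fold change was 1.19 at 2h (edgeR adjusted p 2.8e-09) and 0.52 at 4h (adjusted p 0.00228), and its highest group mean, too, was that at 2h. The 4h call was lost with library size alone (0.70, adjusted p 0.0682), without the clone covariate (0.60, adjusted p 0.345) and with clone 4 alone (0.33, adjusted p 0.0843).

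Pou3f1 (ENSMUSG00000090125, chr4:124656807-124660655 on the plus strand, 1 exon) encodes Oct6, a POU-domain transcription factor. Its libraries held 3.80, 2.98, 4.50 and 2.46 CPM at 0h, 6.99, 8.32, 5.58 and 5.61 at 2h, 9.35, 10.4, 9.87 and 7.37 at 4h, and 5.22, 4.996, 6.46 and 5.86 in rev. Every library at 2h, 4h and rev lay above every library at 0h, while 2h and 4h overlapped through clone 8 replicate 2 at 4h and clone 4 replicate 2 at 2h. Its log2 fold change against 0h was 0.91 (SE 0.20, edgeR adjusted p 0.00085) at 2h and 1.49 (SE 0.19, 2.81-fold, adjusted p 1.51e-07) at 4h. The 2h call was lost with library size alone (adjusted p 0.0618), and the 4h call under none of the 28 alternatives. The further rise from 2h to 4h, 0.58 (SE 0.16, edgeR adjusted p 0.0222), was lost under 8 of 28, among them leaving out 4 libraries in turn: 2h clone 8 replicate 1 (0.54), 2h clone 8 replicate 2 (0.54), 4h clone 4 replicate 2 (0.54) and 4h clone 8 replicate 1 (0.53).

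Utf1 (ENSMUSG00000047751, chr7:139943789-139945112 on the plus strand, 2 exons) encodes a chromatin-bound protein of pluripotent cells. It held 9.78, 9.10, 26.7 and 28.5 CPM at 0h, 21.5, 20.6, 50.9 and 58.4 at 2h, 47.6, 57.4, 91.0 and 92.9 at 4h, and 24.1, 28.2, 46.7 and 48.2 in rev. Clone 8 was the higher clone in every group, and within each clone the 0h, 2h and 4h libraries did not overlap. Utf1 had the largest rise of the 8 genes at 4h, 2.01 on the log2 scale (SE 0.11, 4.02-fold, edgeR adjusted p 6.92e-16), after 1.04 at 2h (SE 0.12, adjusted p 3.06e-08) and with 0.97 from 2h to 4h (SE 0.10, adjusted p 4.12e-08). The call at 4h was made under all 28 alternatives, and the other 2 were lost only where the clone was left out of the model.

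The Utf1 window is shown for contrast with Foxd3, as the gene with the largest rise at 4h. It lies at chr7:139943606-139943905 on the plus strand of GRCm38.p6, and none of the 6 motifs was found in it, which says only that these letters are not in this window. 
Utf1: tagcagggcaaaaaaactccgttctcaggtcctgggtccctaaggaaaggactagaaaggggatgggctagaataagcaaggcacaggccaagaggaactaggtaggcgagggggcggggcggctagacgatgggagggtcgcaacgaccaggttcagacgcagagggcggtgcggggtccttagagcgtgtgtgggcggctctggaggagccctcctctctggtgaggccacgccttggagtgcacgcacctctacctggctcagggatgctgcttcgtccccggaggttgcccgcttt
Both windows were rich in G and C, at 65.7% for Foxd3 and 62% for Utf1, beside a median of 52.7% over all windows. Of the 9 genes, 5 matched the table, all but Pou3f1, Zic2, Tcf15 and Sox3, and the windows of Fgf5 and Sall2 are not printed. That of Fgf5 held 1 match, the ETS motif on the opposite strand 241 bases before the start, and those of Sall2 held none.

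Tcf15 (ENSMUSG00000068079, chr2:152143561-152149097 on the plus strand) encodes a basic helix-loop-helix factor known to prime pluripotent cells for differentiation. It held 1.90, 2.39, 1.45 and 1.28 CPM at 0h and 2.33, 1.75, 0.929 and 1.63 at 2h, and these groups overlapped. At 4h it held 4.95, 3.62, 2.66 and 2.10 CPM, above 0h and 2h within each clone. The log2 fold change was -0.05 (SE 0.30) at 2h, 0.95 (SE 0.28, edgeR adjusted p 0.0075) at 4h and 1.00 (SE 0.27, adjusted p 0.0168) from 2h to 4h. Without 4h clone 4 replicate 1, the highest library, the change against 0h was 0.78 (adjusted p 0.0567) and that against 2h 0.84 (adjusted p 0.108), and without 2h clone 8 replicate 1 the latter was 0.84 (adjusted p 0.0717). The call against 0h was also lost with the share of the 8 models as covariate (0.81, adjusted p 0.0599) and with clone 8 alone (0.85, adjusted p 0.198), and that against 2h under 7 of 28 alternatives in all, library size alone and either clone alone among them. Counts behind these values ran from 4 to 45 per library.

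Otx2 (ENSMUSG00000021848, chr14:48657677-48673819 on the minus strand) encodes the homeodomain factor that is a driver of the formative transition. It held 1.36, 3.58, 2.73 and 3.53 CPM at 0h, 2.20, 1.75, 1.18 and 1.85 at 2h, 2.20, 3.39, 1.71 and 1.58 at 4h, and 1.71, 2.39, 1.49 and 1.35 in rev. Clone 4 replicate 1 at 0h was as low as the 2h libraries, so the groups overlapped, and within clone 8 they did not. The log2 fold change at 2h was -0.78 (SE 0.28, edgeR adjusted p 0.0395), and at 4h -0.41 (SE 0.28, adjusted p 0.264). The call at 2h was lost under 11 of 28 alternatives, with DESeq2 (adjusted p 0.0998) and the replicate block (adjusted p 0.0647) among them, and leaving out any of 6 libraries lost it, with values from -0.86 to -0.55: 0h clone 4 replicate 2, both 0h libraries of clone 8, both 2h libraries of clone 4 and 2h clone 8 replicate 1.

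RefSeq lists 4 windows for Otx2, and the 2 that held a motif are shown, since Otx2 went against the genes that rose at 2h. The first, at chr14:48662685-48662984, holds the Egr motif 237 bases before its start, and the next, at chr14:48665060-48665359, holds the Otx motif on the opposite strand 211 bases before its start; both are on the minus strand of GRCm38.p6 and are written 5′ to 3′ in the direction of the gene. 
Otx2 window 1: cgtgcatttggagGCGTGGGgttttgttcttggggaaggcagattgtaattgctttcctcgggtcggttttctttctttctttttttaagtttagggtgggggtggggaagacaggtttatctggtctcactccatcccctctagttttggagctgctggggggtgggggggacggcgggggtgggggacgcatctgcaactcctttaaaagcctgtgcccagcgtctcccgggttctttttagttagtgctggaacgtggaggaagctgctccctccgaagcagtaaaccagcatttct
Otx2 window 2: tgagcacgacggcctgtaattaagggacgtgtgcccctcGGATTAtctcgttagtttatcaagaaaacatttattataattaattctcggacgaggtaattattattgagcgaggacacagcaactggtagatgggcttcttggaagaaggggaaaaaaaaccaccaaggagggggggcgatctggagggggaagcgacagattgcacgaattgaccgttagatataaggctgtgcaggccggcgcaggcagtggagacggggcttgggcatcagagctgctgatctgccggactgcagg
Otx2 overlaps the antisense model Otx2os1, which had 0 or 1 count in every library, and a same-strand model, Gm49154, not analysed here. Pou3f1 and Foxd3 also overlap other models (Gm2164 and Gm23366), which held 0 counts.

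Sall2 (ENSMUSG00000049532, chr14:52311172-52328762 on the minus strand), a zinc-finger factor related to the pluripotency factor Sall4, was the other gene that was lower at 2h. It held 4.89, 7.91, 8.20 and 10.3 CPM at 0h, 4.53, 4.82, 4.98 and 4.97 at 2h, 7.48, 5.72, 6.27 and 4.47 at 4h, and 6.93, 6.08, 6.96 and 4.51 in rev. The 2h libraries were close together, and the lowest 0h library, clone 4 replicate 1, lay within their range. Fitted against 0h, the log2 fold change was -0.77 (SE 0.18, edgeR adjusted p 0.00159) at 2h and -0.39 (SE 0.18, adjusted p 0.0876) at 4h. The 2h call was lost with library size alone and with clone 4 alone. The 4h value was called under 4 of 28 alternatives, among them without 0h clone 4 replicate 1 (-0.52) or 4h clone 4 replicate 1 (-0.55). Within clone 8 the 4h value was -0.77 and was called (edgeR adjusted p 0.0281), where clone 4 gave -0.03 (adjusted p 0.948). With the clone 8 libraries fitted alone it was -0.76 and was also called (adjusted p 0.0322).

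Sox3 (ENSMUSG00000045179, chrX:60891366-60893430 on the minus strand, 1 exon) encodes a SoxB1 factor close to Sox2. It held 3.26, 2.24, 2.57 and 2.25 CPM at 0h, 2.59, 3.07, 1.35 and 1.07 at 2h, 4.95, 4.44, 1.52 and 2.10 at 4h, and 2.98, 4.34, 1.66 and 1.80 in rev. Clone 4 was above clone 8 in the 3 groups after 0h, and the groups overlapped. The log2 fold change was -0.50 (SE 0.28, edgeR adjusted p 0.207) at 2h, 0.32 (SE 0.26, adjusted p 0.346) at 4h and 0.82 (SE 0.26, adjusted p 0.0517) from 2h to 4h. Within clone 8 the value at 2h was -0.98 and was called (edgeR adjusted p 0.0483), where clone 4 gave 0.05 (adjusted p 0.969); with the clone 8 libraries fitted alone it was -0.97 and was not called (adjusted p 0.0642). Without 4h clone 8 replicate 1, the change from 2h to 4h was 0.95 and was called (adjusted p 0.0388).

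**Figure D3:**
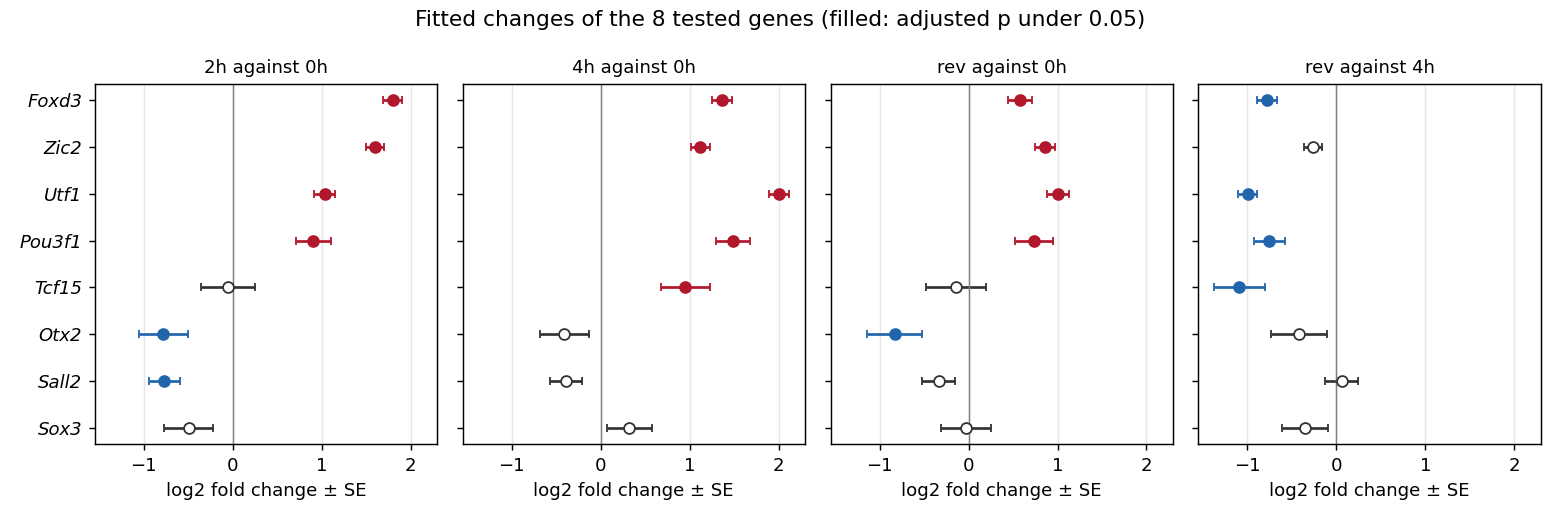
Fitted log2 fold change with its SE as a bar for the 8 tested genes in 4 comparisons, filled in red or blue where the edgeR adjusted p was under 0.05 and open otherwise. At 4h 5 genes were called, all to the right, and in rev against 4h the 4 called genes all lie to the left.

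The second question was how far these genes reverted once MEK was inhibited. From 4h to rev, 4 of the 8 fell, beside 8.43% of all tested genes, and none rose by edgeR or DESeq2, where 7.93% did by edgeR; no gene of the 8 rose at an unadjusted p under 0.05 either. The median log2 fold change over the 8 was -0.59, and 0.01 over all tested genes. Foxd3 fell by 0.78 (SE 0.11, edgeR adjusted p 3.92e-06), Utf1 by 1.00 (SE 0.11, adjusted p 1.42e-08), Pou3f1 by 0.75 (SE 0.18, adjusted p 0.00258) and Tcf15 by 1.09 (SE 0.29, adjusted p 0.00716). Every rev library of Foxd3, Pou3f1 and Tcf15 lay below every 4h library, and Utf1 did so within each clone. Tcf15 stood at 1.71, 1.09, 1.99 and 1.80 CPM in rev, beside 1.28 to 2.39 at 0h, with only clone 4 replicate 2 below that range. Within clone 4, however, both rev libraries lay below both 0h libraries, and within clone 8 both lay above.

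Zic2 changed by -0.26 from 4h to rev (SE 0.10, edgeR adjusted p 0.0793). The rev and 4h libraries overlapped in clone 4, where the change was -0.14 (edgeR adjusted p 0.463), and not in clone 8, where it was -0.50 (adjusted p 0.0484; 0.0622 and not called with the clone 8 libraries fitted alone). It was called in 4 of 28 alternatives, among them with library size alone (-0.70), without 2h clone 8 replicate 1 (-0.27) and without rev clone 4 replicate 2 (-0.34). Whether Zic2 and Foxd3 differed in this comparison was not tested.

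The calls from 4h to rev differed in firmness. Without rev clone 8 replicate 2 all 4 were made, at -0.78 for Foxd3, -0.98 for Utf1, -0.77 for Pou3f1 and -1.15 for Tcf15. Without 4h clone 4 replicate 1, 3 were made, all but Tcf15, and the calls over all genes were 644 higher and 756 lower. That of Foxd3 was made under all 28 alternatives, that of Utf1 was lost only without the clone covariate, and that of Pou3f1 only with clone 8 alone (-0.48). The fall of Tcf15 was lost in 5, among them with clone 8 alone (-0.32, adjusted p 0.784), where clone 4 alone gave -1.53, without 4h clone 4 replicate 1 (-0.90, adjusted p 0.0667) and without rev clone 4 replicate 1 (-0.96, adjusted p 0.0734). Scaling by library size alone moved the median of all tested genes to -0.41 and their calls from 969 higher and 1030 lower to 57 and 1671; with it the 4 genes were still called lower, at -1.20 for Foxd3, -1.42 for Utf1, -1.14 for Pou3f1 and -1.44 for Tcf15.

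In rev, 4 of the 8 genes were still above 0h, beside 12.4% of tested genes, and 1 was below, beside 9.86%. The 4 were Utf1 at 1.01 (SE 0.12, edgeR adjusted p 3.48e-07), Zic2 at 0.86 (SE 0.11, adjusted p 6.76e-07), Pou3f1 at 0.74 (SE 0.22, adjusted p 0.0127) and Foxd3 at 0.58 (SE 0.13, adjusted p 0.00153). The rev libraries of Pou3f1 and Foxd3 lay above all 0h libraries, and those of Utf1 and Zic2 did so within each clone. Otx2 was lower, at -0.83 (SE 0.31, edgeR adjusted p 0.0488), a call that was lost under 20 of 28 alternatives. Tcf15 (-0.14), Sall2 (-0.34) and Sox3 (-0.03) had not passed the test. By clone, Tcf15 gave -0.56 in clone 4 (edgeR adjusted p 0.467) and 0.51 in clone 8 (adjusted p 0.527). This comparison shares its 0h libraries with those at 2h and 4h, and its rev libraries with the fall from 4h.

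With library size alone, where the median of all tested genes was -0.32 and the calls went from 1518 higher and 1204 lower to 105 and 905, only Utf1 of the 4 was still called. The Pou3f1 call was also lost without 0h clone 4 replicate 2 (0.66, adjusted p 0.0546), without 0h clone 8 replicate 2 (0.58, adjusted p 0.0739) and without rev clone 8 replicate 1 (0.59, adjusted p 0.0853).

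The clones differed in 4 of the 8 genes over all groups. Utf1 was higher in clone 8, by 1.08 on the log2 scale (SE 0.08, 2.11-fold, edgeR adjusted p 1.11e-12), beside 15.4% of tested genes. Lower in clone 8, beside 13.7% of tested genes, were Zic2 at -1.14 (SE 0.07, adjusted p 4.08e-14), Sox3 at -0.91 (SE 0.20, adjusted p 0.000507) and Tcf15 at -0.56 (SE 0.21, adjusted p 0.044). Zic2 averaged 42.8 CPM in clone 4 and 17.7 in clone 8 at 0h, and 113 and 61.5 at 2h, with no overlap of the clones in any group. Zic5 shared the direction of its neighbour, with -1.25 (edgeR adjusted p 5.17e-13). Foxd3 gave 0.06 (SE 0.08) and Sall2 0.08 (SE 0.13) without passing the test, and with library size alone both values were negative, at -0.20 and -0.18. The call of Tcf15 was lost under 11 of 22 alternatives, including leaving out any of 9 libraries in turn, with values from -0.57 to -0.47, and in rev alone Tcf15 went the other way, at 1.40 CPM in clone 4 and 1.90 in clone 8, with both clone 8 libraries above both of clone 4.

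**Figure D4:**
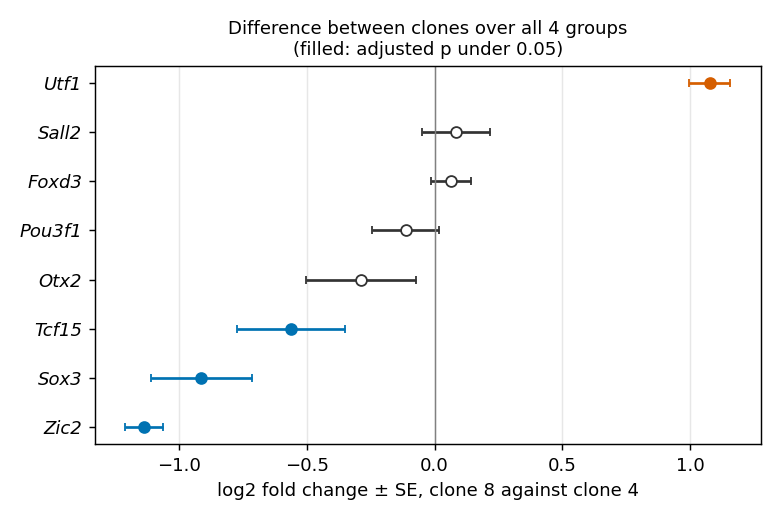
Fitted log2 fold change of clone 8 against clone 4 over the 4 groups, with its SE as a bar, filled where the edgeR adjusted p was under 0.05. Utf1 lies to the right at 1.08, and Tcf15, Sox3 and Zic2 lie to the left, down to -1.14 for Zic2.

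Whether the clones responded differently was tested gene by gene in each comparison, with 40 tests over these genes. By edgeR, 0 of the 40 had an adjusted p under 0.05 and 6 an unadjusted p under 0.05, and DESeq2 was not run for these differences. At an adjusted p under 0.05, the share of all tested genes was 0.0901% at 2h, 0.311% at 4h and 0.0327% between 2h and 4h. It was 0.00819% between 4h and rev and 0.0573% between 0h and rev. The share at an unadjusted p under 0.05 is not given here, so the 6 cannot be set against it. The smallest adjusted p was that of Utf1 at 4h, 0.0852 for a difference of -0.76 (SE 0.20): the rise was 2.48 in clone 4 and 1.73 in clone 8, from means of 9.44 and 27.6 CPM to means of 52.5 and 91.9. Without the filter on low counts its adjusted p was 0.0478. The other 5 were Utf1 between 2h and 4h (-0.56) and in rev against 0h (-0.69), Zic2 at 2h (0.39), Sall2 at 4h (-0.74) and Sox3 at 4h (-1.27), where clone 4 gave 0.84 and clone 8 -0.43.

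The time courses were compared by the correlation r of log2 CPM centred within each clone over the 16 libraries, which share group, scaling and depth. Foxd3 and Zic2 had the highest value among the 28 pairs (0.91), Pou3f1 and Utf1 followed at 0.85, Pou3f1 and Foxd3 at 0.75, and Otx2 and Sall2 at 0.69. Pou3f1 with Zic2 (0.67) and Utf1 with Zic2 (0.66) and Foxd3 (0.66) came close behind. The lowest value was that of Zic2 and Sall2, at -0.63. Outside the list, among 8641 genes, Foxd3 was most like Arc (0.97), Junb (0.96) and Myc (0.95), which are immediate early or growth-response genes. Zic2 was most like Brd2 (0.96), Epc2 (0.95) and Msl2 (0.94). Utf1 was most like Ptpn12 (0.97), the ETS factor gene Etv4 (0.97) and Ctbp2 (0.97), and Pou3f1 like N4bp3 (0.94), Tax1bp1 (0.92) and Serpinb9b (0.92). The low genes reached lower values: Otx2 was most like Bub1b (0.86), Sall2 like Zdhhc17 (0.85) and Dnmt3a (0.85), and Tcf15 like Rmnd5b (0.81).

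Other genes of the formative and primed states were counted from a list of 18, of which 17 were tested. At 2h, 3 rose and 1 fell, at 4h 9 rose and 1 fell, and from 4h to rev 2 rose and 5 fell, with a median log2 fold change of 0.52 at 4h beside -0.02 over all tested genes. With library size alone, 4 rose and 0 fell at 4h, and 0 rose and 8 fell in rev. The 2 that rose in rev became 1 without 4h clone 4 replicate 1 and without rev clone 8 replicate 2, among others. Etv4 rose by 2.62 at 4h (edgeR adjusted p 3.55e-17), Sox4 by 2.03 (adjusted p 7.25e-09) and Dnmt3l, a cofactor of DNA methylation, by 1.72 (adjusted p 3.65e-09), and all 3 fell again in rev, by 1.19, 1.51 and 0.74. The falls of Etv4 and Sox4 were called under all 28 alternatives, and that of Dnmt3l was lost without the clone covariate (-0.67, adjusted p 0.482), with the share of the 8 models as covariate (-0.51, adjusted p 0.101) and with clone 8 alone (-0.45, adjusted p 0.212). Dnmt3b, a de novo DNA methyltransferase of the primed epiblast, rose by 0.41 (adjusted p 0.00077; not called with library size alone, at 0.53, or with clone 4 alone, at 0.22), and Dnmt3a gave -0.17 (adjusted p 0.17). Sox12 was the gene of the list that fell at 4h (-0.30, adjusted p 0.0441), a call that DESeq2 and 6 other alternatives that left out no library did not make.

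The 14 naive pluripotency genes split at 4h, with 5 higher and 6 lower (3 and 2 with library size alone) and a median of -0.12. Fgf4, a target of Oct4 and Sox2 in embryonic stem cells, fell by 1.09 (edgeR adjusted p 3.48e-12), Prdm14 by 1.27 (adjusted p 9.95e-10) and Nanog by 0.68 (adjusted p 4.03e-09), whereas Nr0b1 rose by 0.91 (adjusted p 1.23e-10) and Nr5a2 by 0.58 (adjusted p 6.95e-08). In rev, 8 of the 14 rose from their 4h level and 4 fell, with Fgf4 at 1.45, Prdm14 at 1.06 and Nanog at 0.66; with library size alone 1 of the 14, Fgf4, rose. Of the 7 pluripotency genes shared by both states, 5 rose at 4h (3 with library size alone), and Lin28a had the largest value, 2.64 (adjusted p 8.45e-16). From 4h to rev, 6 of these 7 fell and 1 rose (0 with library size alone).

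Of 17 relatives of the 9 genes in their families, 11 were tested, and 3 rose, Sox2 and Zic5 among them, and 1 fell (Foxd1) at 4h, where library size alone called 1 higher and 0 lower. Sox2 rose by 0.38 (edgeR adjusted p 8.91e-05; lost with library size alone and with clone 8 alone) where its relative Sox3 gave 0.32 without passing the test. Foxd1 gave -1.33 (adjusted p 0.0222) where Foxd3 rose, at 0.764 CPM ± 0.546 in the 4h group; its call was lost without 0h clone 4 replicate 2 (-0.71), 4h clone 4 replicate 1 (-1.05) or 4h clone 4 replicate 2 (-1.10), without the clone covariate, with the share of the 8 models as covariate, and with clone 8 alone (-0.042, adjusted p 0.973). Pou3f3 gave -0.88 (adjusted p 0.0506) where Pou3f1 rose. The differences between relatives were not tested.

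Markers of other cell types were followed beside these genes. The summed level of 7 mesendoderm markers went from 9.01 to 14.9 CPM at 0h to 21.3 to 42.3 CPM at 4h, and of the 5 tested, 3 rose at 4h (Evx1, T and Eomes) and 1 fell (Gsc). The 5 trophoblast markers summed to 0.804 to 4.89 CPM at 0h and 2.63 to 12.6 CPM at 4h, with clone 4 at 10.9 to 12.6 and clone 8 at 2.63 to 3.04, and both tested genes (Cdx2 and Gata3) rose. The 3 markers of 2-cell-like cells summed to 2.03 to 5.43 CPM at 0h and 7.79 to 9.11 at 4h, with 2 called higher. The 6 primitive endoderm markers stayed between 3.26 and 7.21 CPM in all groups, with only Gata4 tested and not called, while the 4 fibroblast markers summed to 2.44 to 3.74 CPM at 0h, 1.87 to 3.85 at 4h and 2.88 to 7.66 in rev. Of the 2 fibroblast markers tested, Col1a1 was higher than at 0h in the 2h group (1.57, edgeR adjusted p 0.00603) and in rev (1.93, adjusted p 0.00136). The 5 neuroectoderm markers lay between 26.1 and 47.8 CPM in all groups, and of the 3 tested, 1 (Pax6) was higher than 0h at 4h and 2 were in rev. The part of such cells in the changes of the 9 genes was not tested.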

How the data were processed

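Per the submitters' processing notes, reads were handled with bcl2fastq 2.19.1 and STAR 2.5.3a on mm10. The authors deposited raw read counts per gene identifier; the counting tool, annotation and strand setting are not given in the sources used here. Total RNA had been depleted of ribosomal RNA, per the labels' protocols. Of 52636 identifiers, 52489 matched GENCODE M21 (GRCm38), which gave symbols, positions and exon lengths, and 147 did not.

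These counts went into edgeR 4.0.16 (R 4.3.3): filterByExpr over the 4 groups kept 12215 genes, TMM factors were 0.463 to 1.47, and 1 quasi-likelihood model with group and clone terms took all 16 libraries, with two-sided contrasts and Benjamini-Hochberg adjustment over all tested genes at 0.05. A model of 8 group and clone cells gave values per clone and differences between clones. Likeness used genes of at least 5 mean CPM and log2 CPM with a prior count of 2, and named the 3 genes with the highest r. List genes were named as the up to 5 with the smallest adjusted p at 4h; Dnmt3a, Sox12 and values in other comparisons were added after they were seen. A gene of these lists enters the counts and is otherwise not reported. Alternatives were RLE factors, library size alone, other count filters, no clone covariate, a replicate block, only the groups compared, each clone alone, DESeq2 1.42.0, the 8 most abundant models removed or their share as covariate, and each library left out. The pipeline was checked on simulated data. The 9 genes, lists and tests were chosen with earlier results of these data known. Floors of 3 counts cover counting error only.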

Additional observations from a re-analysis of the deposited data

Results flagged for a closer look

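In 104 groups of 4 libraries, drawn from the 9 genes and from part of the list genes named in the text, the highest or lowest library was compared with its neighbours. Chance alone would mark about 1 group in 20 if the 4 libraries were alike, and 3 were marked. Each group held 2 clones, which differed for some genes, so the 3 cannot be judged against that rate. None belonged to the 9 genes. Prdm14, a naive pluripotency factor, stood at 18.7 CPM in 4h clone 8 replicate 2, where the other 4h libraries held 10.8 to 11.6. Foxd1, a relative of Foxd3, stood at 1.58 CPM in the same library, where the others held 0.440 to 0.570. Nr5a2, a nuclear receptor of the naive state, stood at 65.3 CPM in 0h clone 4 replicate 2, where the others held 59.7 to 60.6.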

How the results depend on the processing

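Of the 28 alternatives, 12 left out no library and 16 left out 1 each. Counts of the 9 genes called that moved by over 1.5 times were these. Lower at 2h went from 2 to 0 with library size alone and clone 4 alone, to 1 without the clone covariate, with DESeq2 and with the replicate block, and to 1 to 2 over left-out libraries. Lower at 4h went from 0 to 1 with clone 8 alone and with the share of the 8 models as covariate, and 0 to 1 over left-out libraries. From 2h to 4h, 3 higher became 1 with library size alone and with either clone alone, 0 without the clone covariate and 1 to 3 over left-out libraries, and 2 lower became 0 with library size alone and clone 4 alone and 1 without the clone covariate. From 4h to rev, 4 lower became 2 without the clone covariate and with clone 8 alone. In rev against 0h, 4 higher became 1 with library size alone and 2 without the clone covariate and with clone 4 alone; 1 lower became 0 with library size alone, the replicate block, no clone covariate, the share covariate, only the groups compared, either clone alone and DESeq2, and 0 to 1 over left-out libraries. The difference between clones at 4h went from 0 to 1 without the count filter. The replicate block moved no other count of calls among the 9 genes by over 1.5 times. Residuals of same-numbered libraries had a mean correlation of 0.00467 (-0.220 to 0.129 over 12 pairs of groups). No pairing by number was seen, which cannot exclude shared days or cultures.

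Signs changed only among values that had not passed the test. Otx2 at 4h was 0.0096 with clone 4 alone. Foxd3 between clones was -0.20 with library size alone. Sall2 from 4h to rev was -0.35 with library size alone, -0.014 with clone 4 alone and -0.038 to 0.22 over left-out libraries, and between clones -0.18 with library size alone and -0.0056 to 0.15 over left-out libraries. Tcf15 at 2h was -0.20 to 0.13 over left-out libraries, and in rev against 0h 0.53 with clone 8 alone and -0.42 to 0.049 over left-out libraries. Sox3 was 0.037 at 2h with clone 4 alone, -0.41 at 4h with clone 8 alone, and in rev against 0h 0.15 without the clone covariate, 0.045 with only the groups compared, 0.39 with clone 4 alone and -0.33 to 0.11 over left-out libraries. The cause was not tested. Fits of 1 clone rest on fewer libraries, and for Otx2, Tcf15 and Sox3 counts of under 50 per library limit what can be called.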
